A study of Homo sapiens with 12 samples.

Results

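The 56 genes described here carry cells from G1 into S phase and copy their DNA. They were selected by gene symbol, for what their products do, from the deposited gene tables of a breast cancer cell line, and sorted into 11 roles that run from origin licensing to the E2F transcription factors. All 56 were found once in each of the 2 tables, which hold 60623 and 60671 genes, and all 56 were expressed highly enough to be tested in both. The cells were MDA-MB-231, an established human line of triple-negative breast cancer. In 1 experiment cells that received a negative control (NC) were compared with cells in which the RNA- and DNA-binding protein NONO was knocked down with siRNA; in the other, NC cells were compared with cells in which PKM2, the pyruvate kinase isoform of growing cells, was knocked down. Each experiment had its own 3 NC and 3 knockdown libraries, 12 in all, so the experiments share no control, and all of them come from this 1 line. Nothing in the labels says that the libraries of a group came from separate cultures, so p-values measure the spread between these libraries, which may be technical.

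Before replication, the origin recognition complex (ORC), CDC6 and CDT1 load a ring of 6 MCM proteins onto DNA. At the start of S phase, cyclin E with CDK2 helps to activate the ring together with CDC45 and the 4 GINS subunits, after which polymerases held by the sliding clamp PCNA copy the strands. Most of these genes are known targets of the E2F factors, among which E2F1, E2F2 and E2F3 activate transcription and E2F7 and E2F8 repress it.

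The promoter sequences of the members were read from RefSeq on GRCh38.p14, in windows of 250 bases before to 50 after each start, and searched on both strands for the E2F letters TTTCCCGC, TTTCGCGC, TTTGCCGC or TTTGGCGC. Windows were found for 48 members, and 22 of these 48 (45.8%) held a match, beside 3.99% of the 27305 gene symbols with a window. No window was found for CCND1, CCNE2, CDK2, E2F8, GINS4, MCM4, MCM5 or POLD3. The CCAAT box, another element of cell-cycle promoters, was held by 29 of the 48 (60.4%) and by 39.7% of all symbols, and the letters TTTGAA, typical of G2/M promoters, by 2 of the 48 and 18.2% of all symbols. A match is a description of the letters and not a measured binding site. Stretches of 7 promoters are printed 5′ to 3′ in the direction of the gene, with the E2F letters in capitals. In the MCM6 stretch the capitals mark both copies of a longer 12-base run that contains those letters. MCM6, E2F1, E2F2, PCNA and MCM3 are shown because their transcripts rose after NONO knockdown and fell after PKM2 knockdown, CDC25A because it rose after PKM2 knockdown with like letters, and POLA1 because no change was called for it after PKM2 knockdown.
MCM6, chr2:135876514-135876603, minus strand: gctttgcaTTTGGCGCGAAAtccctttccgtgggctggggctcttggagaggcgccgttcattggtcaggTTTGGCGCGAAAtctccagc
E2F1, chr20:33686406-33686465, minus strand: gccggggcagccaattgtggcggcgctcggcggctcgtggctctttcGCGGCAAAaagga
E2F2, chr1:23531244-23531303, minus strand: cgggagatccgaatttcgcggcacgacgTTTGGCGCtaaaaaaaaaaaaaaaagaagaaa
PCNA, chr20:5126648-5126707, minus strand: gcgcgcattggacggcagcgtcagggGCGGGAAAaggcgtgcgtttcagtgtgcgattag
MCM3, chr6:52284883-52284942, minus strand: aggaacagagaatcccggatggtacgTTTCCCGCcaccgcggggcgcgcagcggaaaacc
CDC25A, chr3:48188428-48188487, minus strand: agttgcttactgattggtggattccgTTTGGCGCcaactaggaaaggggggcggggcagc
POLA1, chrX:24693753-24693812, plus strand: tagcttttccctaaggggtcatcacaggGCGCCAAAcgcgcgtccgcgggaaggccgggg

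Depth was 19861762 to 20981712 estimated counts per library in the NONO experiment and 24097948 to 28455268 in the PKM2 experiment. Levels are given below as CPM, counts per 1000000 scaled with TMM factors within an experiment, and as TPM where genes are compared with each other, since TPM is corrected for transcript length. NONO was at 391, 358 and 369 CPM in the NC libraries and at 61.8, 64.3 and 61.9 CPM in the NONO knockdown libraries (log2 fold change -2.57 ± 0.049, SE). PKM, the gene that encodes PKM2 and its sister isoform together, was at 2276, 2211 and 2324 CPM in NC and at 218, 228 and 234 CPM in the PKM2 knockdown libraries (log2 fold change -3.32 ± 0.050, SE). Isoforms of PKM were not separated in the tables. The targeted gene was thus low in every knockdown library of its own experiment. Of the markers of the line, VIM, CD44 and AXL summed to between 3833 and 5092 TPM in every library, while ESR1, PGR, CDH1 and GATA3 summed to 1.43 to 4.51 TPM and the markers of other cell types PTPRC, PECAM1, EPCAM and CD3E to 2.21 to 5.54 TPM, with CD3E listed at 0 throughout. Within groups, NC replicate 1 of the NONO experiment and PKM2 knockdown replicate 3 stood farthest from their group (chi-square per degree of freedom 8.94 to 11.1 and 11.4 to 13.4, against 2.38 to 4.41 among the remaining pairs). The counts of calls, and several members in which these libraries stood out, are also given without them.

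Knockdown of NONO raised more members than it lowered, by small amounts. At an adjusted p below 0.05 (quasi-likelihood test of edgeR, adjusted over all genes by Benjamini and Hochberg's method, n = 3 per group), 29 of the 56 members (51.8%) were higher, 5 (8.93%) were lower and 22 were not called, while over all 14832 genes tested 16.2% were called higher and 17.2% lower. The median log2 fold change of the members was 0.18, and that of all genes tested -0.011. None of the members passed the study's own cutoff of a fold change over 2 with an unadjusted p below 0.05, which 0.789% of all genes passed upward and 2.16% downward. The called changes ran from -0.95 for E2F7 to 0.72 for E2F2 on the log2 scale. The count of higher members depended on the scale. With limma on log2(TPM + 1), 15 of the 29 kept the call, and 10 when no TPM filter was applied. The 14 that lost it in the first case were CDC45, CDC6, CDK4, CHAF1A, GINS4, MCM7, POLA1, POLD2, POLE2, PRIM1, RFC1, RFC3, RFC4 and UHRF1. Without NC replicate 1, 41 members were called higher, among them all 29, and the median was 0.23. The 12 gained were CDC25A, CDT1, CHAF1B, GINS1, GINS3, LIG1, MCM4, ORC6, POLE, PRIM2, RFC2 and RRM2. In cultured cells sampled in bulk, a change in the share of cells in S phase and a change in RNA per cell cannot be told apart.

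Knockdown of PKM2 split the members. Of the 56, 24 (42.9%) were lower, 17 (30.4%) higher and 15 not called, and over all 15524 genes tested 34.7% were called lower and 33.6% higher, so the shares of members called lay near those of all genes. The median of the members was -0.079 and that of all genes -0.015 on the log2 scale. The falls reached large sizes. Past the study's cutoff, 11 members (19.6%) were lower and 0 higher, where 13.8% of all genes were lower and 7.05% higher. These 11 were CCNE1, E2F8, E2F2, PCNA, POLD2, CCNE2, TYMS, POLD1, MCM6, E2F1 and POLE2. The largest rise was 0.91, for E2F7. With limma on log2(TPM + 1), 12 of the 17 higher members kept the call and CDK6, FEN1, GINS1, NPAT and POLD3 lost it. In the same fit 29 members were lower, among them all 24, with CCND3, E2F3, MCM7, ORC6 and RFC2 gained. Without PKM2 knockdown replicate 3, 27 members were lower, among them all 24, and 19 higher, among them all 17, the gains being CCND3, ORC6 and RFC2 downward and POLE and RFC1 upward. Without that library 1 member, E2F7, was also past the study's cutoff upward, at 1.00, and 11 were past it downward. Fold changes in this experiment also trended with GC content, from 0.17 in the lowest of 20 GC bins of genes to -0.29 in the highest, and the median of the members was -0.029 with the GC and length trends removed. Their median transcript GC content was 48.9%, near the 48.0% of all genes tested.

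**Figure D1:**
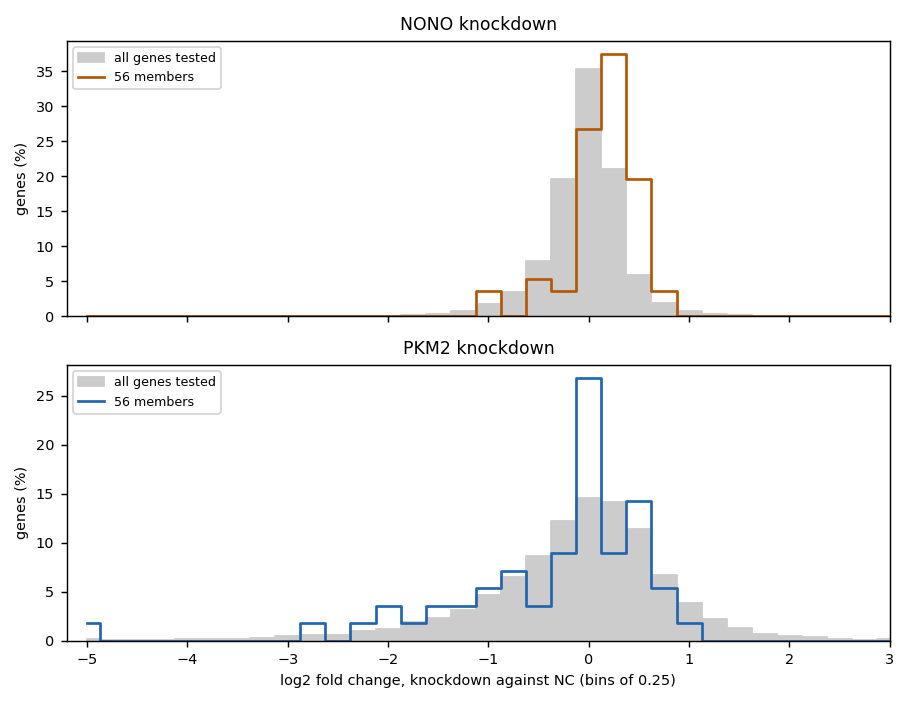
Share of genes (%, y axis) by log2 fold change of knockdown against NC (x axis, bins of 0.25), for all genes tested (grey) and for the 56 members (coloured line), after NONO knockdown (top) and PKM2 knockdown (bottom); values beyond 5 in size are drawn at 5. After NONO knockdown the members sit to the right of all genes, with a median of 0.18, and after PKM2 knockdown they peak near 0 with a tail of falls that ends with CCNE1.

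**Figure D2:**
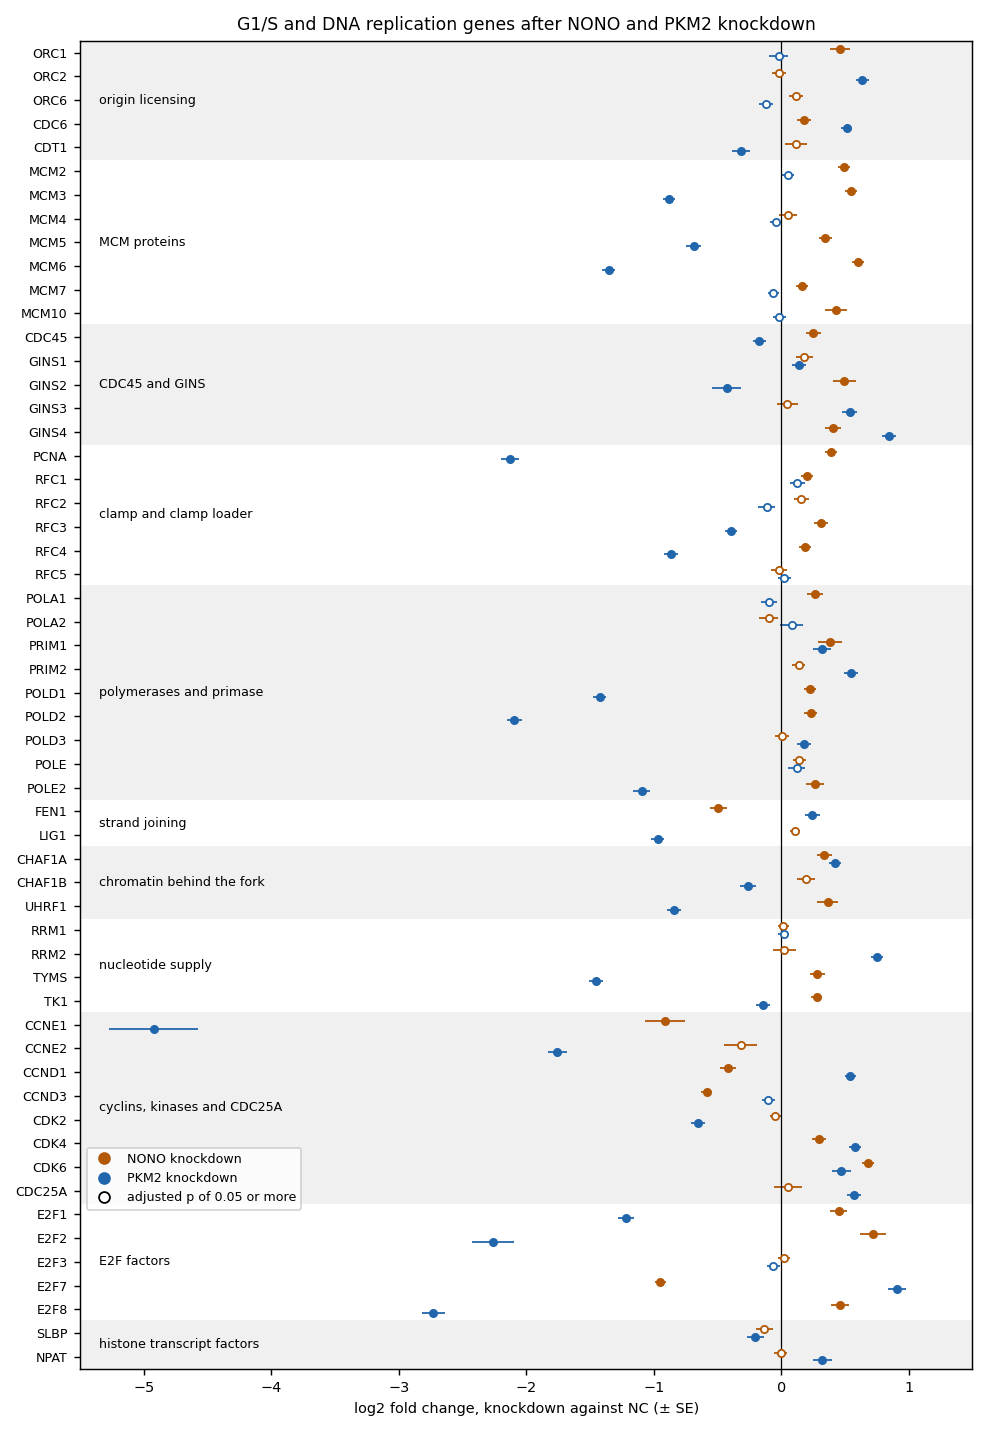
Log2 fold change (x axis) with its SE for each of the 56 members (y axis, sorted by role), after NONO knockdown (orange) and PKM2 knockdown (blue), n = 3 libraries per group; open circles have an adjusted p of 0.05 or more. NONO points lie between -0.95 and 0.72, and PKM2 points reach -4.92 for CCNE1.

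The E2F factors held some of the widest contrasts between the experiments. E2F1, E2F2 and E2F8 rose after NONO knockdown and fell after PKM2 knockdown, and E2F7 did the reverse. E2F3 was not called by edgeR in either. E2F2, an activator, was at 13.1, 11.8 and 10.3 CPM in the NC libraries and 19.2, 18.6 and 20.3 CPM after NONO knockdown, with all knockdown libraries above all NC libraries, a log2 fold change of 0.72 ± 0.10 (SE, adjusted p = 2.93e-04). In the PKM2 experiment the same gene went from 11.1, 14.8 and 11.8 CPM to 2.57, 3.14 and 2.14 CPM, 4.8 times lower (log2 fold change -2.26 ± 0.17, SE, adjusted p = 2.14e-07). E2F2 was the least abundant member in NC cells of both experiments, at 3.22 ± 0.379 and 3.7 ± 0.556 TPM (SD, n = 3).

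E2F8, an atypical repressor, gave the largest fall of the group. It was at 30.7, 31.3 and 28 CPM in NC and 4.19, 4.81 and 4.56 CPM after PKM2 knockdown, 6.63 times lower (log2 fold change -2.73 ± 0.093, SE, adjusted p = 5.77e-10), and the groups were far apart. After NONO knockdown it rose from 38.9, 34.1 and 31.9 to 49.5, 47.3 and 47.4 CPM, a log2 fold change of 0.46 ± 0.074 (SE, adjusted p = 6.96e-04). Its partner E2F7 moved the opposite way each time. After NONO knockdown E2F7 fell from 153, 158 and 163 to 81.6, 81.2 and 82.8 CPM (log2 fold change -0.95 ± 0.044, SE, adjusted p = 1.21e-07), the largest fall among the members in that experiment, and on the TPM scale it was the only member past the study's cutoff. After PKM2 knockdown E2F7 rose from 124, 137 and 132 to 265, 256 and 216 CPM (log2 fold change 0.91 ± 0.073, SE, adjusted p = 4.88e-07), with replicate 3 the lowest of the knockdown libraries. Without that library the rise was 1.00 ± 0.042 (SE), just past a doubling. E2F1, the founding activator, had log2 fold changes of 0.45 ± 0.068 after NONO knockdown and -1.22 ± 0.064 after PKM2 knockdown (SE). For E2F3 these were 0.021 ± 0.048 and -0.061 ± 0.050 (SE).

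**Figure D3:**
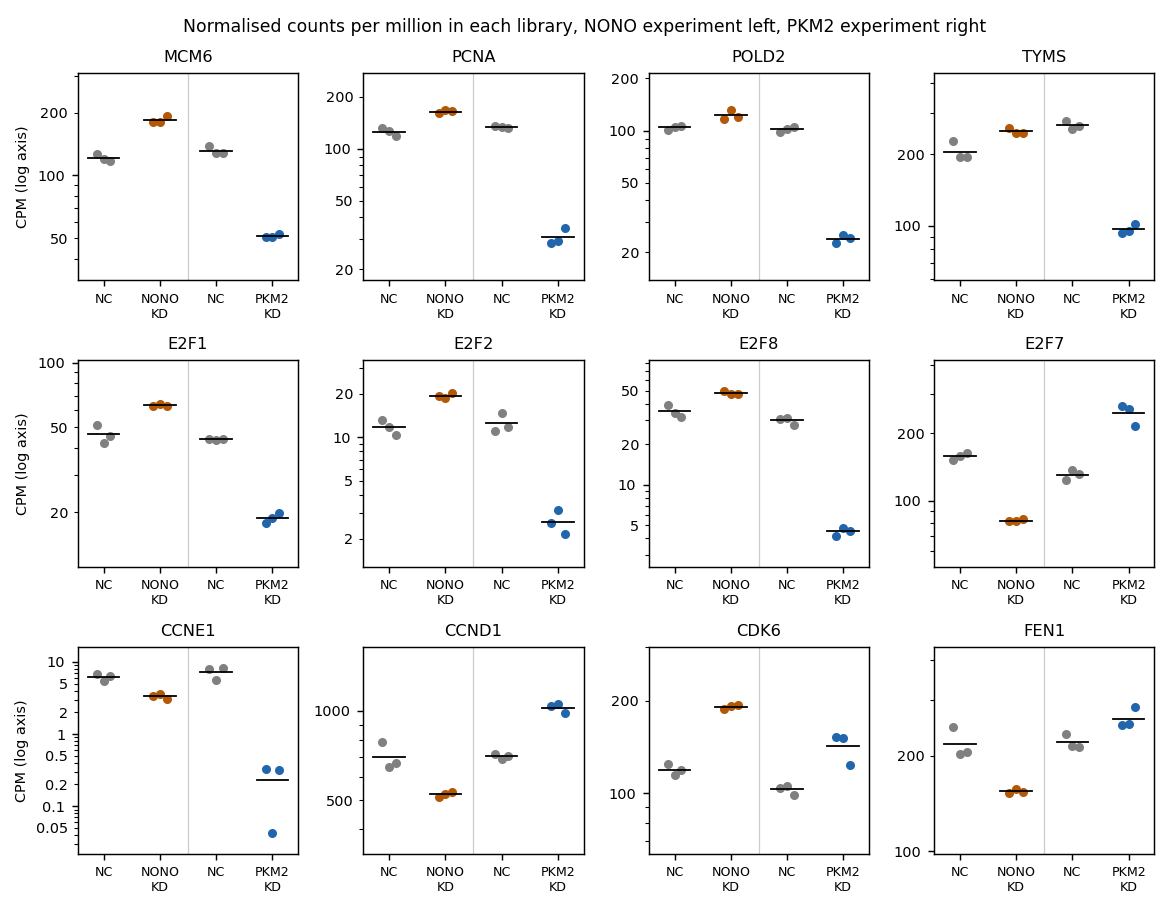
CPM on a log axis (y) in each library (points; bars mark group means) of 12 members, with NC and NONO knockdown left of the grey line and NC and PKM2 knockdown right of it. E2F8 sits at 4.19, 4.81 and 4.56 CPM after PKM2 knockdown, under all NC libraries, and E2F7 is low after NONO knockdown and high after PKM2 knockdown.

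Among the cyclins and kinases, both E-type cyclins fell after PKM2 knockdown, and the D-type kinases CDK4 and CDK6 rose in both experiments. CCNE1 (cyclin E1), which drives CDK2 at the G1/S boundary, was low in every NC library and nearly lost after PKM2 knockdown. It was at 7.85, 5.6 and 8.22 CPM in NC and 0.332, 0.043 and 0.317 CPM after PKM2 knockdown, which are 230.0, 141 and 233 against 8, 1 and 8 estimated counts. The fall was 30.4 times (log2 fold change -4.92 ± 0.35, SE, adjusted p = 1.57e-07), and its size is imprecise because the knockdown libraries hold so few counts. After NONO knockdown CCNE1 fell too, from 6.83, 5.48 and 6.45 to 3.34, 3.56 and 3.05 CPM (log2 fold change -0.91 ± 0.16, SE, adjusted p = 0.00102), without overlap, and it was the only member called lower in both experiments. CCNE2 (cyclin E2) had a log2 fold change of -1.76 ± 0.077 (SE) after PKM2 knockdown, and -0.32 ± 0.13 with an adjusted p of 0.0783 after NONO knockdown, where NC replicate 1 was the highest library. Without it the value was -0.11 ± 0.071 (SE, adjusted p = 0.224 by edgeR). On GENCODE 29, 37.1% of the exon bases of CCNE2 lie opposite INTS8 exons, and the strand setting of the counting is not given in the sources used here, so its counts may hold reads of the neighbour. CDK2, the kinase of the E-type cyclins, had log2 fold changes of -0.046 ± 0.046 (adjusted p = 0.488) and -0.65 ± 0.054 (adjusted p = 5.76e-07).

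The D-type cyclins and their kinases act earlier in G1. CDK6 was the largest riser of the group after NONO knockdown, at 124, 115 and 119 CPM in NC and 189, 192 and 193 CPM in the knockdown, a 1.6-fold rise (log2 fold change 0.68 ± 0.044, SE, adjusted p = 1.45e-06). After PKM2 knockdown it rose by 0.47 ± 0.077 (SE) on the log2 scale, and the difference between the knockdowns was not called (adjusted p = 0.0617). The difference was called lower without a count filter and with a replicate block. It was also called without NC replicate 1 of the NONO experiment, and without PKM2 knockdown replicate 1 or replicate 2. Without PKM2 knockdown replicate 3 the rise of CDK6 in that experiment was 0.57 ± 0.041 (SE). CDK4 rose in both experiments, by 0.30 on the log2 scale after NONO knockdown and, as the largest riser of the group, from 160.2, 163 and 159 to 232, 235 and 253 CPM after PKM2 knockdown (log2 fold change 0.58 ± 0.048, SE, adjusted p = 6.51e-07), though 43.2% of its exon bases lie opposite TSPAN31 exons and a processed pseudogene exists. The cyclins themselves went the other way after NONO knockdown. CCND1 (cyclin D1), the member with the highest mean in the NC cells of that experiment, at 234 ± 18.4 TPM (SD), had a log2 fold change of -0.42 ± 0.062 and CCND3 one of -0.58 ± 0.044 (SE). Without NC replicate 1 the value of CCND1 was -0.32 ± 0.029 (SE). After PKM2 knockdown CCND1 rose by 0.54 ± 0.045 and CCND3 was at -0.10 ± 0.050 with an adjusted p of 0.0962. CDC25A, the phosphatase that activates CDK2, rose after PKM2 knockdown from 34.2, 31.7 and 32.8 to 50.1, 47.3 and 49.3 CPM (log2 fold change 0.57 ± 0.058, SE, adjusted p = 3.65e-06). In the NONO experiment its log2 fold change was 0.051 ± 0.11 (SE, adjusted p = 0.761), and a single NC library, replicate 1, stood above all knockdown libraries. Without it CDC25A was called higher, at 0.22 ± 0.065 (SE, adjusted p = 0.00881 by edgeR).

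Origin licensing moved little after NONO knockdown and in mixed directions after PKM2 knockdown. ORC1, the ATPase subunit of the origin recognition complex, was the largest riser after NONO knockdown, from 25.3, 23.3 and 21.1 to 32.1, 31.3 and 32.2 CPM (log2 fold change 0.46 ± 0.077, SE, adjusted p = 9.56e-04). It was not called after PKM2 knockdown, at -0.020 ± 0.075 (SE). ORC2, which forms the core of the complex, went from 66.2, 66.5 and 63 to 98.6, 102 and 104 CPM after PKM2 knockdown, a 1.55-fold rise without overlap (log2 fold change 0.64 ± 0.051, SE, adjusted p = 4.37e-07), and was at -0.017 ± 0.054 (SE, not called) after NONO knockdown. Of the loading factors, CDC6 rose by 0.52 ± 0.044 after PKM2 knockdown, and CDT1 fell from 48.1, 49 and 50.6 to 37.7, 37.3 and 43.8 CPM (log2 fold change -0.31 ± 0.070, SE, adjusted p = 0.00185). With GC and length trends removed, the value of CDT1 shrank to -0.049 and that of CDC6 was 0.45. CDC6 was also called higher after NONO knockdown, at 0.18 ± 0.057 (SE, adjusted p = 0.0325), but the call was lost when any 1 library other than NC replicate 1 was left out. ORC6 was called in neither experiment by edgeR with all libraries included, but limma on log2(TPM + 1) called it lower after PKM2 knockdown.

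The MCM genes rose nearly as a group after NONO knockdown, while after PKM2 knockdown 3 of the 6 ring subunits fell and the others did not pass the test. After NONO knockdown 6 of the 7 were higher, all but MCM4, with a median log2 fold change of 0.43. MCM6 led them, from 127, 119 and 117 to 180.3, 179.8 and 192 CPM, a 1.52-fold rise (log2 fold change 0.60 ± 0.048, SE, adjusted p = 5.50e-06). MCM3 followed at 0.55 ± 0.048, then MCM2 at 0.49 ± 0.050 and MCM5 at 0.34 ± 0.052 (SE). MCM10, which helps to activate the loaded ring, was at 0.43 ± 0.087 (SE), and MCM4 at 0.056 ± 0.071 (SE, adjusted p = 0.591). Without NC replicate 1 the value of MCM10 was 0.57 and that of MCM4, then called, 0.17. The call of MCM7, at 0.16 ± 0.049 (SE), was lost when any 1 library other than NC replicate 1 was left out.

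After PKM2 knockdown MCM6 was the largest faller of the group, from 138, 128 and 128 to 50.8, 50.9 and 52.3 CPM, 2.56 times lower (log2 fold change -1.35 ± 0.053, SE, adjusted p = 1.51e-09). MCM3 and MCM5 fell as well, with log2 fold changes of -0.88 ± 0.045 and -0.69 ± 0.058 (SE). The ring subunits MCM2, MCM4 and MCM7 had log2 fold changes of 0.054 ± 0.046, -0.043 ± 0.042 and -0.063 ± 0.044, and MCM10 one of -0.014 ± 0.050 (SE). None of these was called by edgeR. The ring holds 1 copy of each subunit, so the levels per length show how unequal the transcripts became. In NC cells of the PKM2 experiment MCM6 was already the lowest of the 6 at 52.5 ± 1.98 TPM while MCM3 and MCM7, at 209 ± 6.73 and 206 ± 1.81 TPM, were the highest and did not differ beyond their spread (SD, n = 3). After PKM2 knockdown MCM6 was at 18.8 ± 0.519 TPM and MCM7, then the highest, at 180.1 ± 6.65 TPM. Summed over MCM2 to MCM7, the level was 766, 762 and 800.3 TPM in NC and 573, 590.3 and 547 TPM after PKM2 knockdown, and 813, 732 and 754 TPM in NC and 916, 922 and 923 TPM after NONO knockdown. In neither experiment did the sums of the groups overlap.

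**Figure D4:**
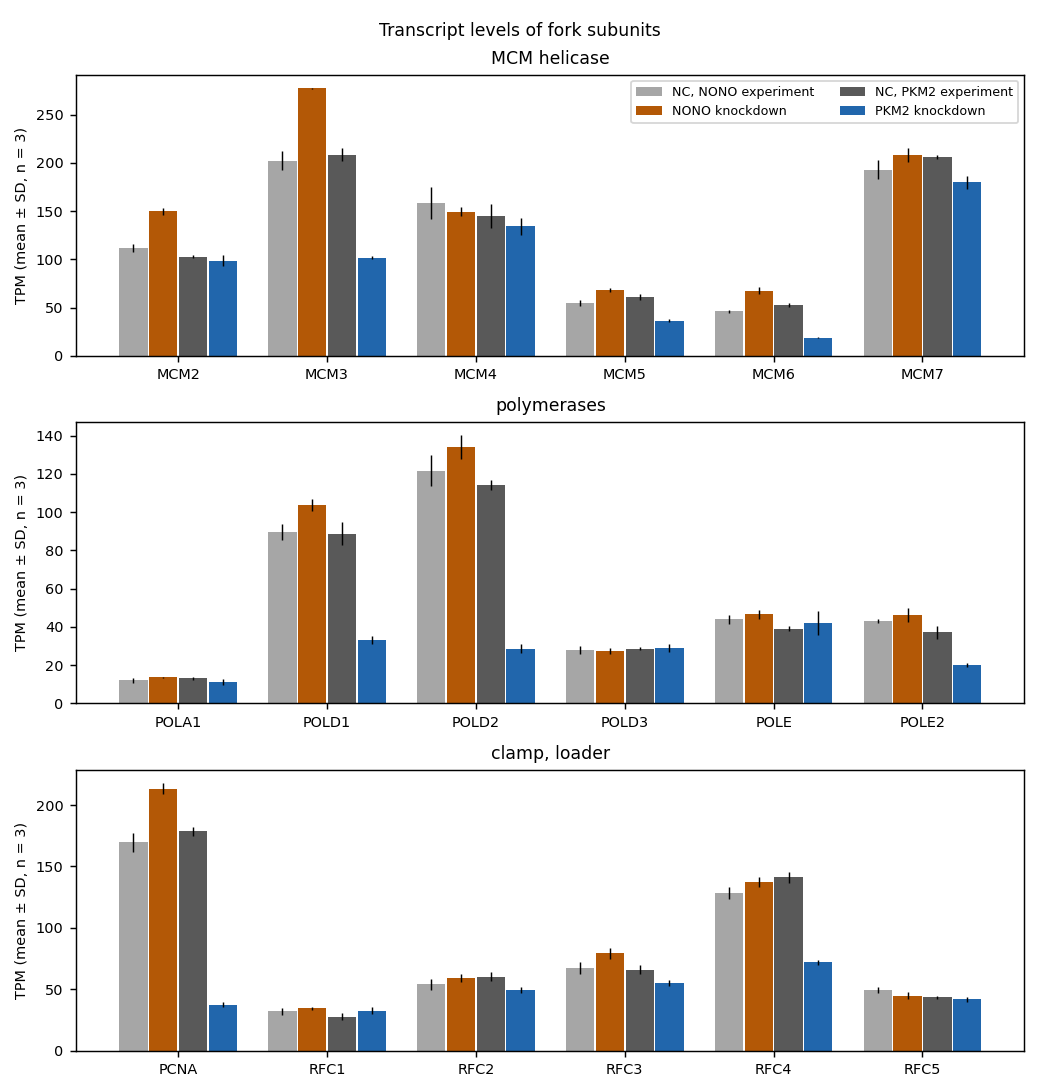
TPM (y axis, mean ± SD, n = 3) of the ring subunits MCM2 to MCM7 (top), 6 polymerase subunits (middle) and PCNA with RFC1 to RFC5 (bottom) in NC and knockdown cells of both experiments. After PKM2 knockdown MCM6, POLD1, POLD2 and PCNA stand far below their NC bars, while MCM2, POLD3 and RFC5 stand close to theirs.

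CDC45 and GINS join the MCM ring to form the active helicase. The 4 GINS subunits work as 1 complex, but their transcripts parted after PKM2 knockdown, with GINS2 lower and the other 3 higher. GINS2 went from 22.4, 24.2 and 21.5 to 13.8, 17.1 and 19.7 CPM (log2 fold change -0.43 ± 0.11, SE, adjusted p = 0.00523), and GINS4 from 41.4, 39.8 and 40.8 to 74.1, 72.3 and 73 CPM, 1.8-fold higher (log2 fold change 0.85 ± 0.052, SE, adjusted p = 4.91e-08). The knockdown libraries of GINS2 were spread more widely than those of GINS4, and without knockdown replicate 3 the fall of GINS2 was -0.55 ± 0.10 (SE). GINS3 rose by 0.54 ± 0.059 (SE). GINS1 was at 0.14 ± 0.057 (SE) with an adjusted p of 0.0484, a call that DESeq2, the fit without a count filter and the fits on TPM did not make, and that was also lost without any 1 library other than knockdown replicate 3. CDC45 was at -0.17 ± 0.053 (SE, adjusted p = 0.0135), and this call was lost without a count filter, without NC replicate 3 or without knockdown replicate 1. After NONO knockdown GINS2 rose most, from 24, 19.9 and 19.3 to 30.9, 29.5 and 28.7 CPM (log2 fold change 0.50 ± 0.089, SE, adjusted p = 0.00146). GINS4 rose by 0.41 and CDC45 by 0.25, and GINS1 and GINS3 were not called. GINS2 was thus higher after NONO knockdown and lower after PKM2 knockdown, and GINS4 was higher after both. Exons of GINS4 overlap genes of the opposite strand over 23.6% of their bases. Other members share exon bases with neighbours too, among them MCM2 (23.6%) and CDK2 (16.8%) on the opposite strand. On the same strand POLA2 (35.1%) and RRM2 (20.2%) do so.

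PCNA, the sliding clamp that holds polymerases on DNA, showed one of the largest falls of the set. It was at 135, 134 and 132 CPM in NC and 28.3, 29.2 and 34.4 CPM after PKM2 knockdown, 4.36 times lower (log2 fold change -2.12 ± 0.071, SE, adjusted p = 4.98e-10), with the groups far apart. After NONO knockdown it rose from 132, 126 and 119 to 160.2, 167 and 166 CPM (log2 fold change 0.39 ± 0.048, SE, adjusted p = 1.21e-04), without overlap. Processed pseudogenes of PCNA exist, and how reads that match several copies were counted is not given in the sources used here. RFC1 to RFC5 form the loader that places PCNA on DNA. After PKM2 knockdown RFC4 and RFC3 fell, with log2 fold changes of -0.86 ± 0.053 and -0.39 ± 0.048 (SE), while RFC1, RFC2 and RFC5 were not called by edgeR. After NONO knockdown RFC1, RFC3 and RFC4 were called higher, with log2 fold changes of 0.20, 0.31 and 0.19, but none of these calls was made on the TPM scale. Summed over the loader, the level was 339, 350.4 and 326 TPM in NC and 259, 246 and 249 TPM after PKM2 knockdown, without overlap.

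The subunits of the replicative polymerases changed unevenly after PKM2 knockdown. POLD1 and POLD2, the catalytic subunit of polymerase delta and its main accessory subunit, fell, and POLD3 rose slightly. POLD2 went from 98.8, 102 and 105 to 22.7, 25 and 24.1 CPM, 4.27 times lower (log2 fold change -2.09 ± 0.060, SE, adjusted p = 2.01e-10). POLD1 had a log2 fold change of -1.43 ± 0.052 and POLD3 one of 0.18 ± 0.053 (SE). In polymerase epsilon the accessory POLE2 fell, at -1.10 ± 0.070, and the catalytic POLE was at 0.12 ± 0.065 (SE, adjusted p = 0.117). The primase subunits, which start each new strand, were higher. PRIM2 was the largest riser, from 62.8, 64.1 and 59 to 92.7, 89 and 90.2 CPM (log2 fold change 0.55 ± 0.053, SE, adjusted p = 2.26e-06), and PRIM1 rose by 0.32 ± 0.070 (SE). POLA1 and POLA2, which make up polymerase alpha with primase, were at -0.094 ± 0.064 and 0.082 ± 0.091 (SE) and not called.

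After NONO knockdown 5 of the 9 polymerase and primase genes were called higher and none lower. PRIM1 rose most, from 23.7, 24.9 and 27.4 to 28.6, 35.6 and 35.1 CPM, with NC and knockdown libraries just apart (log2 fold change 0.38 ± 0.094, SE, adjusted p = 0.00885). The call of PRIM1 was lost without NONO knockdown replicate 2, and that of POLE2 (0.27) without NONO knockdown replicate 3. POLD2 rose from 101, 105 and 107 to 116, 131 and 120.5 CPM (log2 fold change 0.23 ± 0.052, SE), POLD1 by 0.23 and POLA1 by 0.27. POLD2 and POLD1 were therefore raised by NONO knockdown and lowered by PKM2 knockdown, like PCNA, the clamp that polymerase delta uses.

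FEN1 and LIG1 trim and join the fragments of the lagging strand, and they parted after PKM2 knockdown. FEN1, the flap nuclease, fell after NONO knockdown from 245, 202 and 205 to 152, 158 and 154 CPM (log2 fold change -0.49 ± 0.067, SE, adjusted p = 2.50e-04), the only fork gene of the set called lower there. Without NC replicate 1 the fall was -0.39 ± 0.035 (SE). After PKM2 knockdown FEN1 was higher, from 235, 215 and 213 to 250.3, 251 and 284 CPM (log2 fold change 0.24 ± 0.061, SE, adjusted p = 0.0038), a call not made on the TPM scale. LIG1, the ligase, fell after PKM2 knockdown from 107, 105 and 109 to 55.9, 53.1 and 55 CPM, 1.96 times lower (log2 fold change -0.97 ± 0.050, SE, adjusted p = 1.15e-08). LIG1 was not called after NONO knockdown, at 0.11 ± 0.042 (SE).

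Behind the fork, the CAF-1 subunits CHAF1A and CHAF1B place new histones, and UHRF1 helps to copy DNA methylation. UHRF1 rose after NONO knockdown from 313, 238 and 246 to 338, 338 and 349 CPM (log2 fold change 0.36 ± 0.084, SE, adjusted p = 0.00654) and fell after PKM2 knockdown from 251, 248 and 231 to 144, 136 and 129 CPM (log2 fold change -0.84 ± 0.055, SE, adjusted p = 8.43e-08). In the NONO experiment NC replicate 1 was well above the other NC libraries, and without it the rise of UHRF1 was 0.51 ± 0.034 (SE). The CAF-1 subunits were called in opposite directions after PKM2 knockdown. CHAF1A went from 113, 116 and 108 to 149, 149 and 154 CPM (log2 fold change 0.42 ± 0.048, SE, adjusted p = 9.55e-06), while CHAF1B was at -0.26 ± 0.061 (SE, adjusted p = 0.00242).

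Of the genes that supply nucleotides, TYMS, which makes thymidylate, moved most. It went from 277, 255 and 264 to 93.8, 95 and 102 CPM after PKM2 knockdown, 2.74 times lower (log2 fold change -1.45 ± 0.054, SE, adjusted p = 1.03e-09), and from 227, 196 and 194 to 258, 246 and 246 CPM after NONO knockdown (log2 fold change 0.28 ± 0.059, SE, adjusted p = 0.00374). TYMS was the most abundant member in NC cells of the PKM2 experiment, at 279 ± 5.51 TPM (SD, n = 3). Of its exon bases, 46.6% lie opposite exons of ENOSF1 or TYMSOS, so its counts are uncertain to that extent. RRM2, the regulatory subunit of ribonucleotide reductase, rose after PKM2 knockdown from 166, 161 and 159 to 279, 275 and 263 CPM (log2 fold change 0.75 ± 0.046, SE, adjusted p = 4.93e-08), while the large subunit RRM1 was at 0.019 ± 0.045 (SE, not called). After NONO knockdown RRM2 and RRM1 were at 0.026 ± 0.094 and 0.017 ± 0.043 (SE) and not called. Without NC replicate 1 RRM2 was called higher, at 0.18 ± 0.042 (SE). TK1, which salvages thymidine, rose by 0.28 ± 0.047 after NONO knockdown and was at -0.14 ± 0.057 (SE) with an adjusted p of 0.0428 after PKM2 knockdown, a call lost with DESeq2, with RLE factors and without any 1 library other than knockdown replicate 3. With GC and length trends removed the PKM2 value of TK1 was 0.050, of the opposite sign. SLBP and NPAT, which handle histone transcripts in S phase, were not called after NONO knockdown. After PKM2 knockdown SLBP fell from 188, 173 and 178 to 145, 150.3 and 172 CPM (log2 fold change -0.20 ± 0.065, SE, adjusted p = 0.0154), a call lost without any 1 of 3 libraries, NC replicate 1 and knockdown replicates 1 and 2. NPAT rose from 46.3, 54.4 and 49.2 to 66.4, 63 and 57.9 CPM (log2 fold change 0.32 ± 0.073, SE, adjusted p = 0.00194).

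The knockdowns were then compared with each other as the difference between their log2 fold changes, PKM2 minus NONO, in 1 fit over the 12 libraries. Of the 56 members, 30 (53.6%) had a lower and 13 (23.2%) a higher change after PKM2 knockdown at an adjusted p below 0.05, where 27.4% of the 15995 genes tested were called lower and 25.7% higher. Without NC replicate 1 of the NONO experiment 32 were lower, and without PKM2 knockdown replicate 3 30, with 13 higher each time. The largest differences were in CCNE1 (-4.02 ± 0.40, SE, adjusted p = 2.12e-07), E2F8 (-3.20 ± 0.12, adjusted p = 2.45e-12), E2F2 (-3.00 ± 0.20, adjusted p = 1.84e-09), PCNA (-2.53 ± 0.090, adjusted p = 1.03e-12) and POLD2 (-2.34 ± 0.080, adjusted p = 7.39e-13). In GENCODE 29 on GRCh38, CCNE1 (ENSG00000105173) lies on chromosome 19, 29811898 to 29824308, plus strand, E2F8 (ENSG00000129173) on chromosome 11, 19224063 to 19241620, minus strand, E2F2 (ENSG00000007968) on chromosome 1, 23506430 to 23531220, minus strand, PCNA (ENSG00000132646) on chromosome 20, 5114953 to 5126626, minus strand, and POLD2 (ENSG00000106628) on chromosome 7, 44114681 to 44124358, minus strand. E2F7 led the differences in the other direction, at 1.84 ± 0.093 (SE, adjusted p = 6.13e-11). The experiments were separate, so a difference between them and a difference between the knockdowns cannot be told apart, although NC cells of both held the members at like levels (Pearson's r of the log2 mean TPM 0.993 over the 56 members).

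Set side by side, 17 members (30.4%) were called higher after NONO knockdown and lower after PKM2 knockdown, as were 3.79% of the 14525 genes tested in both experiments. These were CDC45, E2F1, E2F2, E2F8, GINS2, MCM3, MCM5, MCM6, PCNA, POLD1, POLD2, POLE2, RFC3, RFC4, TK1, TYMS and UHRF1. All 17 kept both calls without NC replicate 1 of the NONO experiment and without PKM2 knockdown replicate 3. With limma on log2(TPM + 1), CDC45, POLD2, POLE2, RFC3, RFC4 and UHRF1 lost the call after NONO knockdown. With no TPM filter E2F2, GINS2, POLD1 and TK1 lost it too. The PKM2 calls of TK1 and CDC45 and the NONO call of POLE2 were also lost when certain other single libraries were left out. With GC and length trends removed the PKM2 value of TK1 turned sign, to 0.050. The reverse, lower after NONO and higher after PKM2 knockdown, was called for 3 (5.36%), namely CCND1, E2F7 and FEN1, and for 4.18% of those genes. A further 6 (10.7%) were higher in both (CDC6, CDK4, CDK6, CHAF1A, GINS4 and PRIM1), near the 9.34% of genes. CCNE1, 1 member (1.79%), was lower in both, where 9.93% of genes were, and 8 (14.3%) were called in neither, where 23.0% of genes were. Across the 56 members the log2 fold changes of the experiments had a Pearson's r of -0.0039 and a Spearman's rho of -0.29, given as a description, since members share their libraries and are not replicates.

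**Figure D5:**
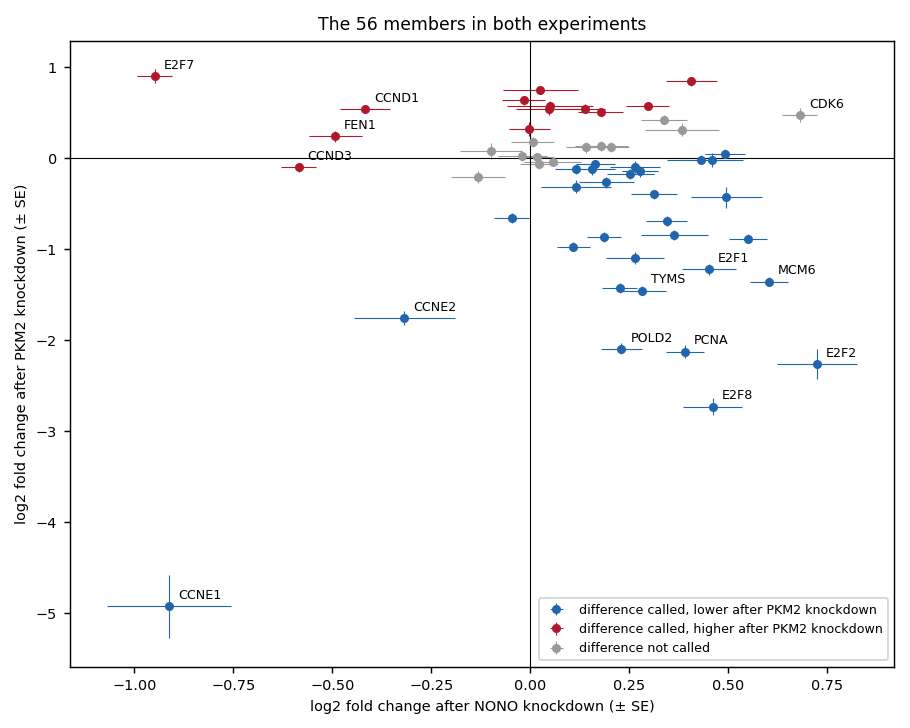
Log2 fold change after NONO knockdown (x axis) against that after PKM2 knockdown (y axis) for the 56 members, each with its SE and n = 3 libraries per group; colour marks the members whose difference was called. Most called members lie right of 0 and below 0, E2F7, CCND1, FEN1 and CCND3 lie at the left, and CCNE1 stands alone at -0.91 and -4.92.

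Members with and without the E2F letters in their promoter window were also set side by side. The 8 members for which no window was found are in neither group. Some of these changed much after PKM2 knockdown, E2F8 (-2.73) and CCNE2 (-1.76) downward and GINS4 (0.85) upward. After PKM2 knockdown 12 of the 22 with the letters were called lower and 4 higher (median log2 fold change -0.35), and of the 26 without them 8 were lower and 10 higher (median 0.0020). After NONO knockdown 14 of the 22 were higher and 0 lower (median 0.27), and of the 26 without them 12 were higher and 4 lower (median 0.17). Of all genes tested that hold the same letters, 257 of 701 (36.5%) were lower and 271 (38.4%) higher after PKM2 knockdown, with a median of 0.0088, beside 37.0% lower and 35.9% higher of the genes without them. After NONO knockdown 109 of 699 (15.5%) were lower and 146 (20.8%) higher, with a median of 0.0056, beside 18.7% lower and 17.9% higher of the genes without them. In the printed stretches, which were chosen in part for these changes, like letters stood before genes that moved differently. MCM6 carries TTTGGCGC in both copies of its longer run, and CDC25A and E2F2 carry it once each. After PKM2 knockdown the log2 fold changes of MCM6, CDC25A and E2F2 were -1.35, 0.57 and -2.26. Outside the printed stretches, the windows of E2F1 (-1.22) and CDC6 (0.52) hold the same letters in the direction of the gene.

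Genes of the same pathway outside the set were read from lists of known function. Of 22 G1 inhibitors, pocket proteins and E2F partners, 8 were lower and 2 higher after NONO knockdown, where 17.2% of all genes were lower and 16.2% higher. After PKM2 knockdown 7 were lower and 8 higher, near the shares of all genes, 34.7% and 33.6%. CDKN1A (p21), an inhibitor of CDK2 that the study also names from these libraries, was the largest faller after NONO knockdown, from 127, 119 and 119 to 55.1, 53.1 and 47.8 CPM (log2 fold change -1.23 ± 0.059, SE), and it fell after PKM2 knockdown too, from 132, 127 and 138 to 54.2, 56.1 and 54.8 CPM (log2 fold change -1.27 ± 0.052, SE). CDKN1B (p27), a related inhibitor, was called in opposite directions, at -0.71 ± 0.073 after NONO knockdown and 1.16 ± 0.051 after PKM2 knockdown, the largest rise of the list there (SE). RBL1 (p107), a pocket protein that holds repressor E2Fs, led the rises after NONO knockdown at 0.72 ± 0.055, and E2F5, a repressor, the falls after PKM2 knockdown at -1.95 ± 0.091 (SE). CDKN2A and CDKN2B were too low to test.

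Of 36 other replication genes, 12 were higher and 2 lower after NONO knockdown (all genes, 16.2% and 17.2%), and 19 were higher and 10 lower after PKM2 knockdown (all genes, 33.6% and 34.7%). TIPIN, of the fork protection complex, led the rises after NONO knockdown at 0.71 ± 0.098, and ASF1A, a histone chaperone, the falls at -0.34 ± 0.083 (SE). After PKM2 knockdown DTL, which guides the PCNA-dependent destruction of CDT1, rose most at 1.22 ± 0.060, and TICRR, which helps to load CDC45, fell most at -1.17 ± 0.096 (SE). Remaining subunits of complexes described above were measured as well. ORC4 and ORC5 rose with ORC2 after PKM2 knockdown, at 0.62 and 0.58, and POLE3 and POLE4 rose at 0.70 and 0.53 where POLE2 fell.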

How the data were processed

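Poly(A)-selected RNA of 12 MDA-MB-231 libraries was read as pairs of 150 bases. For every gene in each library, the tables deposited by the authors give an estimated count, which need not be whole, and a TPM value; per the labels, fastp, HISAT2, StringTie, RSEM, DESeq2, edgeR, limma and the build hg19 appear in the submitters' processing notes, with no roles or versions. The deposited tables also hold the authors' mean TPM per group, fold changes and p-values, which were not used; the number of unused columns of values per library was 0. Groups were taken from the labels, and columns, which have the same names in both tables, were assigned by table. Members and lists were chosen with earlier results of these data known.

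Estimated counts were rounded, filtered with filterByExpr, scaled with TMM and tested with edgeR 4.0.16 (quasi-likelihood, R 4.3.3), knockdown against NC within each experiment, with Benjamini-Hochberg adjustment over all genes tested. The difference between knockdowns was an interaction term in 1 fit of the 12 libraries. SE is that of the log2 fold change, derived in the edgeR fits as its absolute size divided by the square root of the F statistic. Alternatives were DESeq2 1.42.0, RLE factors, no count filter, a replicate block, limma 3.58.1 on log2(TPM + 1) or log2(TPM + 0.1) with or without a mean TPM of at least 1, GC and length trends removed, and each library left out. The tests were tried on simulated data. Depth of 19861762 to 28455268 counts leaves the fewest counts for CCNE1, and E2F2 was at 62, 73 and 54 estimated counts after PKM2 knockdown. Per experiment and role, the called member with the largest fall and rise is given for every library, with the 5 largest differences between knockdowns and, of each list, the largest fall and rise and CDKN1A; other members are given by value or count. Promoter windows are from RefSeq (GRCh38.p14) and exon overlaps from GENCODE 29 (GRCh38), not the build in the labels, and were used for sequence and neighbours only.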

Additional observations from a re-analysis of the deposited data

Results flagged for a closer look

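The log2 fold change differed between the knockdowns for 43 members at an adjusted p below 0.05, by a test of the difference itself (edgeR's quasi-likelihood test of the interaction over all genes, n = 3 libraries per group, PKM2 minus NONO). In the same test 27.4% of all genes were called lower and 25.7% higher. The experiments were separate, so a difference between them and between the knockdowns cannot be told apart, and no cause was tested.

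Among the E2F factors the difference was -3.20 for E2F8, -3.00 for E2F2 and -1.68 for E2F1, and in the other direction 1.84 for E2F7. The cyclins and kinases gave -4.02 for CCNE1, -1.45 for CCNE2 and -0.62 for CDK2, against 0.95 for CCND1, 0.51 for CDC25A, 0.47 for CCND3 and 0.27 for CDK4. In origin licensing the difference was -0.49 for ORC1, -0.44 for CDT1 and -0.25 for ORC6, and 0.64 for ORC2 and 0.32 for CDC6. All called differences of the MCM proteins were in 1 direction, at -1.97 for MCM6, -1.44 for MCM3, -1.05 for MCM5, -0.46 for MCM10, -0.45 for MCM2 and -0.24 for MCM7. CDC45 and the GINS genes were split, with -0.94 for GINS2 and -0.44 for CDC45, and 0.48 for GINS3 and 0.43 for GINS4. The clamp and its loader gave -2.53 for PCNA, -1.06 for RFC4, -0.72 for RFC3 and -0.28 for RFC2.

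The polymerase and primase genes gave -2.34 for POLD2, -1.66 for POLD1, -1.37 for POLE2 and -0.37 for POLA1, and 0.40 for PRIM2. At strand joining the difference was -1.09 for LIG1 and 0.72 for FEN1, and behind the fork -1.22 for UHRF1 and -0.47 for CHAF1B. Nucleotide supply gave -1.75 for TYMS and -0.43 for TK1, and 0.71 for RRM2, and of the histone transcript factors NPAT had a difference of 0.31. Some of these calls were lost under alternatives. The calls of POLA1, GINS4, CDC25A and NPAT were lost in each fit on TPM, and that of RRM2 with no TPM filter. The call of ORC6 was lost without NC replicate 2, NC replicate 3 or knockdown replicate 1 of the NONO experiment. That of RFC2 was lost without NC replicate 2 of the PKM2 experiment.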

How the results depend on the processing

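In the alternative fits and with each library left out, no called member changed sign in either experiment or in the difference between knockdowns. With GC and length trends removed, TK1 after PKM2 knockdown turned from -0.14 to 0.050. Differences between knockdowns were not read per member with those trends removed. The count of members higher after NONO knockdown fell from 29 to 15 with limma on log2(TPM + 1) and on log2(TPM + 0.1), and to 10 with no TPM filter, and these 3 fits put 1 member, E2F7, past the study's cutoff in place of 0. The count of members higher after PKM2 knockdown was 11 instead of 17 with limma on log2(TPM + 1) and no TPM filter. Without PKM2 knockdown replicate 3, E2F7 (1.00) was past the cutoff upward, so that the count of such members ranged from 0 to 1 as libraries were left out. The other counts of called members and of members past the cutoff stayed within 1.5 times.

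The median member log2 fold change after NONO knockdown, 0.18, was 0.099 on log2(TPM + 1) with or without the TPM filter, 0.10 on log2(TPM + 0.1) and 0.20 with GC and length trends removed. After PKM2 knockdown, -0.079, it was -0.067 with DESeq2 and with RLE factors, -0.19 on each TPM scale and -0.029 with GC and length trends removed. Leaving out 1 library moved these medians between 0.16 and 0.23 and between -0.082 and -0.059. Medians of all genes tested moved with the scale as well. After NONO and PKM2 knockdown they were -0.011 and -0.015 with edgeR, -0.053 and -0.094 on log2(TPM + 1), -0.057 and -0.10 on log2(TPM + 0.1), and -0.019 and -0.024 with no TPM filter. The cause was not tested.

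Among members printed although not called, the sign turned in these cases, among others. With a single library left out, CDC25A reached -0.037 and ORC2 0.017 after NONO knockdown, and POLA2 reached -0.0095 after PKM2 knockdown. With GC and length trends removed, MCM7 was at 0.089, E2F3 at 0.047 and RRM1 at -0.0023 after PKM2 knockdown. After NONO knockdown MCM4 was at -0.078 and RRM1 at -0.034 on each TPM scale, MCM4 at -0.00040 without NC replicate 2 (0.17 without NC replicate 1), and RRM2 at -0.053, -0.021 and -0.0017 without NC replicate 2, NC replicate 3 and knockdown replicate 3. After PKM2 knockdown MCM2 was at -0.061 on log2(TPM + 1) and -0.062 on log2(TPM + 0.1), RRM1 at -0.11 on each TPM scale, ORC1 at 0.00044 and 0.021 without knockdown replicates 1 and 3 (-0.060 without replicate 2), and MCM10 at 0.0060, 0.0096 and 0.0062 without NC replicate 1, knockdown replicate 1 and knockdown replicate 3 (-0.049 without NC replicate 3).

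Replicate numbers were not treated as pairs. Same-numbered libraries deviated together in some pairs and apart in others (correlations -0.24 to 0.12). With 3 libraries per group, and some far from their group, these correlations cannot decide whether libraries were paired. With the replicate block 5 members were lower and 29 higher after NONO knockdown. After PKM2 knockdown 24 were lower and 16 higher, and in the difference 31 were lower and 13 higher. With 3 libraries per group, small changes such as those of GINS1, TK1, CDC6 and MCM7 lie at the limit of what these data resolve. Depth limits CCNE1 most, at 8, 1 and 8 estimated counts after PKM2 knockdown.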

Other observations

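Genes of the later cell cycle were read from a list of 20 G2/M genes. After NONO knockdown 13 of the 20 were called higher and 0 lower, led by MYBL2, an activator of mitotic genes, at 0.62 ± 0.068 (SE) on the log2 scale. With 16.2% of all genes called higher there, the G2/M genes and the replication genes both leaned upward. After PKM2 knockdown 9 were higher and 6 lower, where 33.6% of all genes were higher and 34.7% lower. AURKB, the kinase of the chromosomal passenger complex, rose most, from 81.5, 83.7 and 80.3 to 144, 146 and 164 CPM (log2 fold change 0.89 ± 0.059, SE), and MKI67, the proliferation antigen, fell most, from 739, 713 and 713 to 439.7, 470.3 and 332 CPM (log2 fold change -0.80 ± 0.10, SE), with knockdown replicate 3 the lowest. Without that library the fall of MKI67 was -0.66 ± 0.038 (SE).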
